A study of Mus musculus with 2 samples.

Results

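The TGF-beta, activin, inhibin and BMP genes described here are 38 genes of ligands, receptors, SMAD proteins and antagonists of the TGF-beta superfamily. They were chosen by symbol, each symbol was matched to its gene ID in the GENCODE M21 annotation of the mm10 mouse assembly, and all 38 were found among the 55536 annotated genes. The libraries hold total RNA from the adrenal glands of 2 adult male mice aged 8 to 10 months, of the strain B6CASTF1/J, a C57BL/6J by CAST/EiJ F1 hybrid. Both animals belong to 1 group with no treatment, genotype or second condition named. Replicate 2 is animal 4 and replicate 1 is animal 2 of the submitters' numbering, and the labels give both animals the same donor entry. Each library was made from 300 ng of RNA with a directional (strand-keeping) kit and carried ERCC spike-ins, which are synthetic RNAs added as a control.

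Ligands of this superfamily are secreted dimers that bring together type I and type II serine/threonine kinase receptors. The type I receptor then phosphorylates receptor-regulated SMADs (Smad2 and Smad3 for TGF-beta and activin, Smad1, Smad5 and Smad9 for BMPs), which enter the nucleus with Smad4. Inhibin is a dimer of an alpha subunit, encoded by Inha, and a beta subunit. It opposes activin, a dimer of beta subunits, with betaglycan (Tgfbr3) as co-receptor. In mice, loss of Inha is known to lead to adrenocortical tumours after removal of the gonads.

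Levels are given in TPM (a level corrected for transcript length and library size), as deposited, and detection required at least 1 TPM in each animal. Annotated genes held 33987434 expected counts in replicate 2 and 29994901 in replicate 1, of which the 38 genes took 0.211% and 0.191%. The libraries differed by far more than the sampling noise of a repeated deposit (the chi-square over 18181 genes, divided by its degrees of freedom, was 53.2). Markers checked the labelled tissue: all 7 cortex markers were detected (summed TPM of 18099 in replicate 2 and 21459 in replicate 1), as were all 7 chromaffin markers (2228 and 3128 TPM), while none of 5 kidney markers was detected. Fat markers differed widely between the glands, at a summed 1986 TPM in replicate 2 and 227 TPM in replicate 1. Of these, 7 of 7 were at least 2-fold higher in replicate 2, against 2.39% of nuclear genes averaging at least 100 counts, and none was at 0. In these whole-gland data, fewer cells of a type and less RNA per cell cannot be told apart.

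Of the 38 genes, 30 were detected, against 56.3% of 22015 nuclear protein-coding genes. The median of their mean level was 13.4 TPM over those 30, against 13.2 TPM over 12385 detected coding genes. Mean levels ran over a wide range, with betaglycan (Tgfbr3) at the top at 100 TPM and noggin (Nog) at the bottom at 0.23 TPM. All 8 SMAD genes and most receptors were detected, whereas 1 of 3 inhibin and activin subunits, 3 of 9 other ligands and 2 of 4 antagonists missed the limit.

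**Figure D1:**
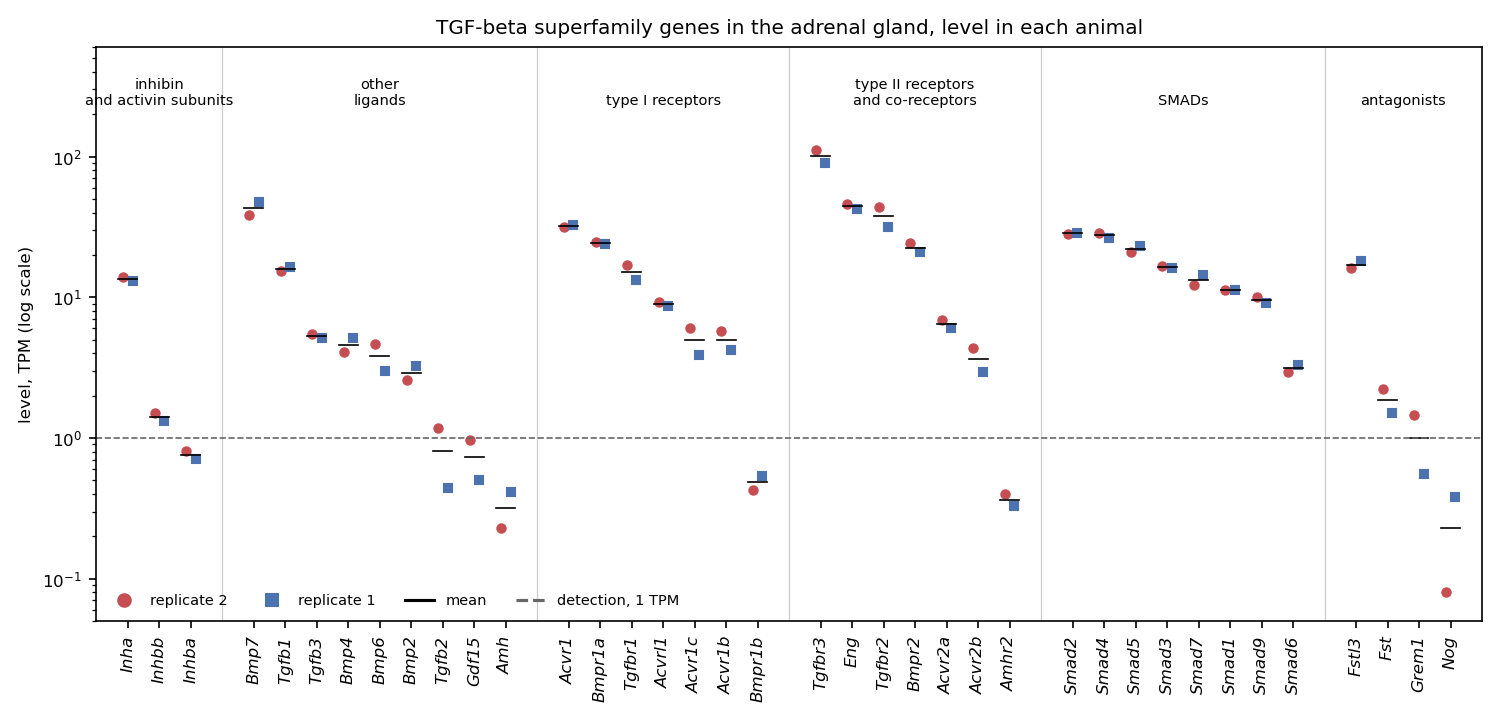
Level of each of the 38 genes in TPM on a log scale, grouped by role, with replicate 2 as red circles, replicate 1 as blue squares, the mean as a short bar and 1 TPM as the dashed line. Tgfbr3 is highest at 111 TPM in replicate 2 and 89.6 TPM in replicate 1, and Nog lowest at 0.08 and 0.38 TPM.

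Among the inhibin and activin subunits, the inhibin alpha gene was far above both beta genes. Inha (ENSMUSG00000032968.4, mm10 chr1:75507077-75510366, plus strand) had 13.9 TPM in replicate 2 and 13.1 TPM in replicate 1, from 575 and 505 expected counts. Inhbb, which encodes the beta-B subunit (chr1:119415465-119422248, minus strand), had 1.51 and 1.33 TPM. Inhba, which encodes the beta-A subunit (chr13:16011851-16031621, plus strand), had 0.81 and 0.71 TPM and lay under the detection limit in both. Their expected counts were 189 and 155 for Inhbb and 142 and 120 for Inhba. The order of these 3 genes was the same in both animals, and no level of a gene overlapped that of another.

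The ratio of Inha to the sum of Inhba and Inhbb was 5.99 in replicate 2 and 6.43 in replicate 1, or 6.21 ± 0.311 (SD, n = 2). Inha alone was 17.8 ± 0.931 times Inhba and 9.53 ± 0.466 times Inhbb (SD, n = 2). Between the animals these genes were close. The scaled count of Inha in replicate 2 was 0.971 times that in replicate 1, with an exact 95% counting interval of 0.860 to 1.1. The same ratio was 1.04 for Inhbb (0.836 to 1.29) and 1.01 for Inhba (0.786 to 1.30). All 3 intervals hold equality. They cover counting error only, and with 1 library on each side they hold no variation between animals or library preparations. The reads carry no molecular identifiers and may share a molecule, so the intervals may be too narrow even for counting error.

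Bmp7 was the most abundant ligand. BMP7 is a bone morphogenetic protein known for its part in kidney and eye development. The gene (chr2:172868012-172940321, minus strand) had 38.5 TPM in replicate 2 and 47.2 TPM in replicate 1, from 4068 and 4626 expected counts, and took 79.0 ± 2.38% of the summed TPM of Bmp2, Bmp4, Bmp6 and Bmp7 (SD, n = 2). In TPM it was 3.18 ± 0.585 times as high as Inha. Its ratio of replicate 2 to replicate 1 was 0.750 in scaled counts (0.719 to 0.782). Thus the lead of Bmp7 over the other BMP genes held in both glands, at 77.3% of the sum in replicate 2 and 80.6% in replicate 1.

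Of the 3 TGF-beta genes, Tgfb1 was the highest in both animals. Tgfb1 (chr7:25687002-25705077, plus strand), the isoform best known in immune and fibrotic settings, had 15.3 TPM in replicate 2 and 16.5 TPM in replicate 1, from 876 and 923 expected counts. Tgfb3 (chr12:86056745-86079041, minus strand) had 5.49 and 5.12 TPM, from 542 and 471. Tgfb1 held 72.2 ± 3.60% of the summed TPM of Tgfb1, Tgfb2 and Tgfb3, and Tgfb3 held 24.1 ± 1.24% (SD, n = 2). Tgfb1 had a ratio of replicate 2 to replicate 1 of 0.809 (0.737 to 0.889), whereas the interval of Tgfb3 (0.866 to 1.11) holds equality.

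Tgfb2 (chr1:186622792-186705989, minus strand) is a case in which the level and the count part ways. It had 1.17 TPM in replicate 2 and 0.44 TPM in replicate 1, a TPM ratio of 2.66. Its expected counts were 83 and 62, a scaled ratio of 1.14 (0.811 to 1.61), so the counts do not carry the difference in TPM. The effective length that divides the counts was 2367 bases in replicate 2 and 5016 bases in replicate 1. By RSEM the coding transcript Tgfb2-201 took 39.5% of the gene's TPM in replicate 2 and 100% in replicate 1. Most of the remainder in replicate 2 was put on the retained-intron transcript Tgfb2-205 (38.1%, from 10.7 reads) and the short processed transcript Tgfb2-203 (21.7%, from 2 reads). By kallisto Tgfb2-201 took 34.9% in replicate 2 and 83.7% in replicate 1. With 1 effective length in both libraries, an alternative added after the data were seen, the TPM ratio of Tgfb2 became 1.25. Of the 38 genes, 2 (Tgfb2 and Bmp4) had effective lengths at least 1.25-fold apart. Among the 31 averaging at least 100 counts it was 1, against 4.61% of all nuclear genes at that depth.

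The other BMP genes lay under Bmp7. Bmp4 had 4.08 TPM in replicate 2 and 5.13 TPM in replicate 1, Bmp6 had 4.63 and 2.97 TPM, and Bmp2 had 2.60 and 3.22 TPM. Their order changed between the animals. By kallisto Bmp4 had 2.16 and 2.57 TPM, close to Bmp2 at 2.20 and 2.62 TPM. The RSEM level of Bmp4 holds 39.1% and 40.8% on the retained-intron transcript Bmp4-204, from 7.59 and 9.27 reads, where kallisto put 0%. Bmp2 had the only interval of these 3 that leaves out equality, at a ratio of 0.738 (0.625 to 0.871). Bmp6, known as a signal for hepcidin in liver, had a ratio of 1.16 with an interval of 0.992 to 1.36. Txndc5 lies on the opposite strand over Bmp6 with 5362 counts in replicate 2 and 3922 in replicate 1. Coding genes on the opposite strand also overlap Tgfb3 (Ttll5, 965 and 1043 counts), Acvr2a (Orc4, 997 and 940) and Eng (Fpgs, 400 and 308). The library kit keeps strand, but the strand setting of the counting is not stated, so a share of reads from these partners was not tested.

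The ligands under 1 TPM in at least 1 animal, beside Inhba and Tgfb2, were Gdf15 and Amh. Gdf15 (chr8:70629393-70632456, minus strand), a stress-induced ligand, had 0.96 TPM in replicate 2 and 0.50 TPM in replicate 1, on 37 and 18 expected counts. Amh, anti-Mullerian hormone (chr10:80805243-80807648, plus strand), had 0.23 and 0.41 TPM on 11 and 18 counts. Both intervals hold equality, at 0.973 to 3.27 for Gdf15 and 0.222 to 1.16 for Amh, so no difference between the animals was detectable at this depth. The AMH receptor gene Amhr2 (chr15:102445367-102454633, plus strand) was as sparse, with 0.40 and 0.33 TPM on 22 and 15 counts, and its interval of 0.620 to 2.59 holds equality too. Of 5 gonadal somatic markers, 2 were detected (Sox9 and Dhh) and Fshr and Dmrt1 were at 0 TPM in both. Foxl2 had 0 counts in replicate 2 and 27 in replicate 1 (0.00 and 0.31 TPM), and its part in the Amh values was not tested.

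**Figure D2:**
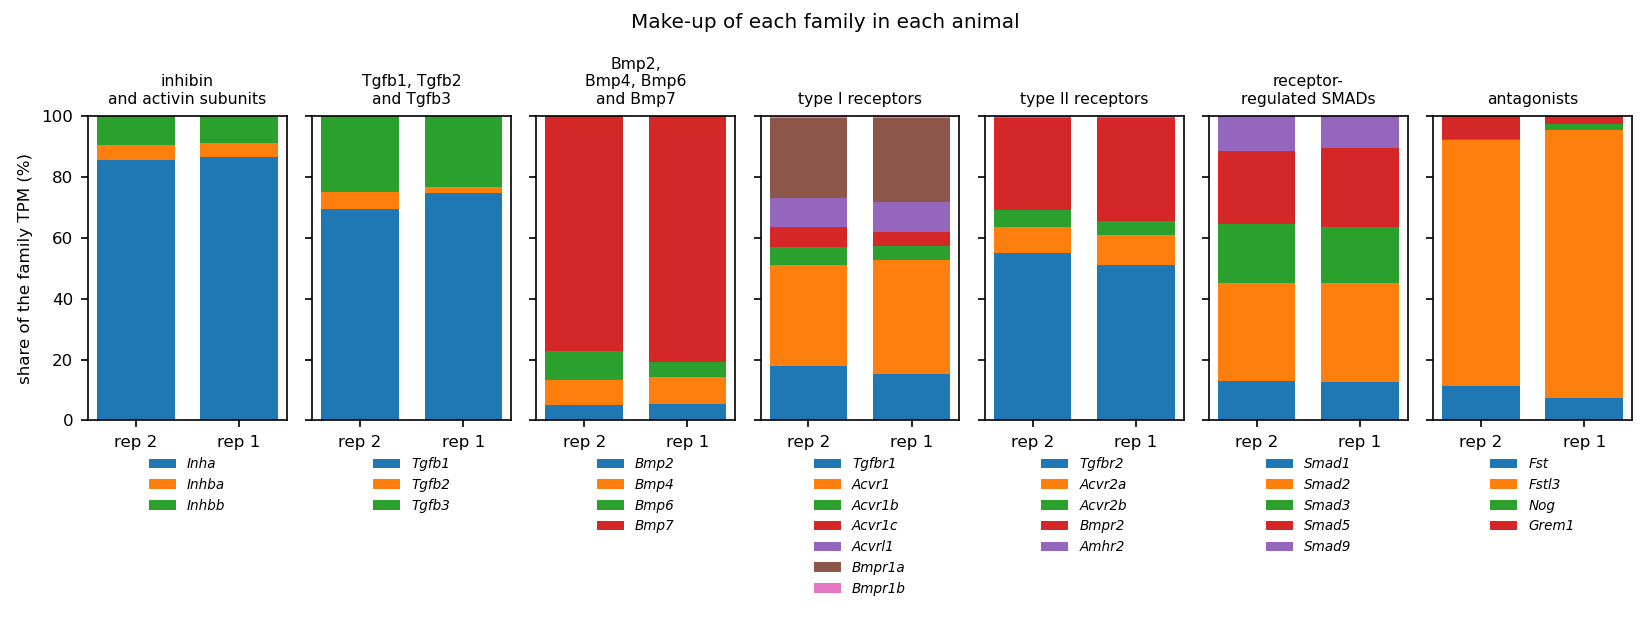
Share of each gene in the summed TPM of its family (percent), with replicate 2 left of replicate 1 in each panel. Inha holds 85.7% of the subunit TPM in replicate 2 and 86.5% in replicate 1, and Bmp7 holds 77.3% and 80.6% of the TPM of the 4 BMP genes shown.

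Type I receptors were led by the BMP-type receptors. Acvr1 (ALK2; chr2:58388644-58567157, minus strand) had 31.3 TPM in replicate 2 and 32.6 TPM in replicate 1, which was 35.3 ± 3.0% of type I receptor TPM (SD, n = 2). Bmpr1a (ALK3; chr14:34410734-34503341, minus strand) had 24.8 and 24.0 TPM, or 26.9 ± 0.886%. Tgfbr1 (ALK5, the TGF-beta type I receptor; chr4:47353222-47414931, plus strand) had 16.9 and 13.3 TPM, or 16.6 ± 1.84%. This order of 3 was the same in both animals. Tgfbr1, with 2444 and 1672 expected counts, had a ratio of 1.25 (1.17 to 1.33), whereas Bmpr1a, with 3362 and 2788, had 1.03 (0.978 to 1.08). Bmpr1b (ALK6; chr3:141837136-142169425, minus strand) was the only type I receptor under 1 TPM, at 0.43 and 0.54 TPM on 57 and 55 counts, with an interval of 0.599 to 1.30.

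Lower in the range, Acvrl1 (ALK1, known from endothelium) had 9.19 TPM in replicate 2 and 8.63 TPM in replicate 1, and Acvr1b (ALK4, the main activin type I receptor) had 5.74 and 4.19 TPM. The endothelial markers summed to 371 and 365 TPM, with 8 of 8 detected. Their intervals lay below equality for 5 of 8 and above it for 2, where 28.4% of nuclear genes lay on each side. Acvrl1 and Acvr1b are next to each other on chromosome 15, on the same strand and 28.7 kb apart with no coding gene between them. Their ratios were 1.03 (0.929 to 1.15) and 1.25 (1.12 to 1.41), so only the interval of Acvr1b leaves out equality.

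Acvr1c (ALK7, a receptor for activin B and nodal known from fat and pancreatic islets) had the second largest ratio among genes averaging at least 100 counts. It had 6.07 TPM in replicate 2 and 3.91 TPM in replicate 1, from 1096 and 547 expected counts. The scaled ratio was 1.71 (1.54 to 1.90), short of the 2-fold limit. Its neighbour Acvr1, 30.7 kb away on the same strand of chromosome 2, had a ratio of 0.931 (0.880 to 0.986). Of the fat markers, Fabp4 had 572 TPM in replicate 2 and 62.1 TPM in replicate 1, and Adipoq had 175 and 18.9 TPM. The brown fat markers summed to 233 and 16.8 TPM, with Ucp1 at 80.6 and 0.14 TPM. The part of these cells in the Acvr1c difference was not tested.

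The highest gene of the set in both animals lay among the type II receptors and co-receptors. Tgfbr3 (betaglycan; chr5:107106570-107289629, minus strand) had 111 TPM in replicate 2 and 89.6 TPM in replicate 1, from 16494 and 10613 expected counts. Eng (endoglin, the co-receptor known from endothelium; chr2:32646595-32682669, plus strand) had 46.2 and 42.5 TPM. Tgfbr2 (the TGF-beta type II receptor; chr9:116084293-116175360, minus strand) had 44.0 and 31.6 TPM. Expected counts were 4150 and 3464 for Eng and 6176 and 4008 for Tgfbr2. Tgfbr3 exceeded both in each animal, at 2.68 ± 0.218 times Tgfbr2 and 2.26 ± 0.211 times Eng (SD, n = 2).

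Among the type II receptors proper, Tgfbr2 took 53.1 ± 2.81% of the summed TPM and Bmpr2, the BMP type II receptor, took 32.0 ± 2.43% (SD, n = 2). Bmpr2 had 24.2 TPM in replicate 2 and 20.8 TPM in replicate 1. The activin type II receptors were lower, with 6.87 and 6.04 TPM for Acvr2a and 4.34 and 2.95 TPM for Acvr2b. No ratio in this class lay below equality. The intervals above it were those of Tgfbr3 at 1.32 (1.29 to 1.36), Tgfbr2 at 1.31 (1.26 to 1.37) and Bmpr2 at 1.1 (1.07 to 1.14).

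For several receptors the annotation holds coding transcripts that differ in part of their coding sequence, and both quantifiers gave a share to each form. Of the 38 genes, 9 have 1 annotated transcript and 29 have more. By its mean share over both animals, the leading transcript was protein coding in all 29. In single libraries, forms not annotated as protein coding led 2 genes. These were Bmpr1b in replicate 1 by RSEM (Bmpr1b-205 at 38%, on 11.4 reads) and Tgfb2 in replicate 2 by kallisto (Tgfb2-205 at 53.8%). By the same means, RSEM-format and kallisto-format tables named the same leading transcript in 25 of the 29 and differed for Acvr1, Bmp4, Bmpr1b and Fst. By RSEM the leading transcript was most of the gene for Bmp7 (Bmp7-201 at 97.8% of TPM in replicate 2 and 97.4% in replicate 1), Inhba (Inhba-201, 91.0% and 95%), Fstl3 (Fstl3-201, 90.4% and 93.0%), Tgfb1 (Tgfb1-201, 85.1% and 89.9%) and Smad4 (Smad4-201, 85.7% and 93.2%). By kallisto Smad4-201 took 59.7% and 55.4%, with Smad4-202 at 27.9% and 22.6%. The leading share by RSEM was lower for Smad5 (Smad5-201, 85.0% and 70.6%), Tgfbr1 (Tgfbr1-201, 78.6% and 70.4%), Bmpr1a (Bmpr1a-201, 68.1% and 60.0%), Eng (Eng-201, 59.9% and 53.3%) and Smad2 (Smad2-201, 38.8% and 47.5%). By kallisto Smad2-201 took 33.2% in replicate 2 and 30.4% in replicate 1. Smad2-206 took 29.5% and 33.7%, and so led in replicate 1. In RSEM expected counts Smad2-205, annotated at 8089 bases, led with 1545 in replicate 2 and 1506 in replicate 1. Smad2-201, at 2410 bases, had 759 and 885. Gdf15-202 held 100% in both animals and Amhr2-201 held 100% and 87.3%, on few reads. Acvr1 was divided among several transcripts, and the order of Acvr1-203 (34.4% and 28.4%) and Acvr1-204 (29.4% and 32.6%) by RSEM differed between the animals. By kallisto Acvr1-204 took 25% in replicate 2, under Acvr1-201 at 27.3%, and 32.5% in replicate 1. All 3 of these transcripts code for 1530 bases. Fst was divided among Fst-202 (34.9% and 44.9%), Fst-205 (29.9% and 31.9%) and the retained-intron transcript Fst-203 (30.4% and 19.4%), of which kallisto placed Fst-205 first in both animals. The shares of transcripts are model estimates, since reads in exons that transcripts share have to be divided among them.

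Tgfbr2-202 carries 75 coding bases that Tgfbr2-201 lacks, an exon at chr9:116158271-116158345 (mm10, minus strand) that adds an insert near the start of the extracellular part. The first sequence shows that exon in capitals between its flanking coding bases, and the second shows the form without it, with the 2 bases at the junction in capitals. Both were taken from the GENCODE M21 transcripts.
Tgfbr2-202: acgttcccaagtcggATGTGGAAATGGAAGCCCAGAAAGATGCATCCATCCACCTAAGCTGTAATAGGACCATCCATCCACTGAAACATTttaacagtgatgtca
Tgfbr2-201: acgttcccaagtcgGTtaacagtgatgtca
The form with the insert took 27.9% of Tgfbr2 TPM in replicate 2 and 25% in replicate 1, by RSEM. The kallisto-format shares were 25.1% and 22.2%. The form without the insert had the larger share of TPM in both glands by both quantifiers. In expected counts the forms were closer, at 2956 in replicate 2 and 1769 in replicate 1 with the insert, against 3220 and 2239 without it. The annotated transcripts also differ in length, at 8092 bases with the insert and 3476 bases without it.

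In Acvr1c, the transcript Acvr1c-204 skips an exon of 240 coding bases at chr2:58295926-58296165 (minus strand) and keeps the reading frame. The skipped exon of Acvr1c-201 is in capitals in the first sequence, and the junction of Acvr1c-204 in the second.
Acvr1c-201: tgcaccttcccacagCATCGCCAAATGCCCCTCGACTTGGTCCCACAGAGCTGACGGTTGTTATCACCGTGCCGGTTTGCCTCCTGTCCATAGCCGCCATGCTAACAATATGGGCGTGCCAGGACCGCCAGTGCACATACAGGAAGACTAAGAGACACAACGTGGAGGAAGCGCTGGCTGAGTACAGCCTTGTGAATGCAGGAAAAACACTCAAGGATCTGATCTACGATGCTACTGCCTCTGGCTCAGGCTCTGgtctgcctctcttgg
Acvr1c-204: tgcaccttcccacaGGtctgcctctcttgg
Acvr1c-201 took 61.4% of the gene's TPM in replicate 2 and 49.2% in replicate 1, and Acvr1c-204 took 29.4% and 35.0%. In reads the 2 were much further apart. Acvr1c-201, annotated at 9162 bases, had 1016 and 488 expected counts, against 75.1 and 53.6 for Acvr1c-204 at 1497 bases. Acvr1c-201 held most of the gene's expected counts in each animal, so the difference in counts between them lay mostly on it. That does not show a change particular to this form.

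Acvr2b is known in mouse in forms with and without a short insert on the inner side of the membrane. Acvr2b-202 carries 72 coding bases at chr9:119428353-119428424 (plus strand) that Acvr2b-205 lacks, shown in capitals in the first sequence.
Acvr2b-202: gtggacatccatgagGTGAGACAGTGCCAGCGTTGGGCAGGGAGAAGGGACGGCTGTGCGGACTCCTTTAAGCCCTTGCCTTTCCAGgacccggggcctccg
Acvr2b-205: gtggacatccatgaGGacccggggcctccg
Transcripts with this stretch (Acvr2b-202 and Acvr2b-201) took 23.3% of Acvr2b TPM in replicate 2 and 31.1% in replicate 1, on 58.1 and 50.1 reads. Acvr2b-205, without it, took 54.0% and 61.8%, on 217 and 157 reads. The form without the insert led in both animals. A retained-intron transcript, Acvr2b-204, took 22.8% in replicate 2 on 12.3 reads and 0% in replicate 1, which bears on the TPM of this gene: its TPM ratio was 1.47 and its count ratio 1.17 (0.972 to 1.40).

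Endoglin is known in a long and a short form that differ in the cytoplasmic tail. Eng-202 codes through 89 bases at chr2:32681298-32681386 (plus strand) that are absent from the coding sequence of Eng-201. The stretch is in capitals in the first sequence and ends at a stop codon. Eng-201 instead runs on through other coding bases, to 1962 in all against 1926 for Eng-202.
Eng-202: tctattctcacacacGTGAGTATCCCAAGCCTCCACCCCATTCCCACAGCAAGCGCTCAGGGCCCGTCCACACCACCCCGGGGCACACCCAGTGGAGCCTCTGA
Eng-201: tctattctcacacaCGtggccccagcaagc
Eng-202 took 6.78% of Eng TPM in replicate 2 and 20.8% in replicate 1, on 276 and 722 expected counts. By kallisto the shares were 15.6% and 32.9%. The share was lower in replicate 2 by both quantifiers, while the gene's total count ratio was 1.02 (0.976 to 1.07). Tgfbr3 had its coding transcript Tgfbr3-201 at 77.6% in replicate 2 and 61.9% in replicate 1, beside the retained-intron transcript Tgfbr3-204 at 20.4% and 32.1%. By kallisto Tgfbr3-201 took 74.9% and 55.9%, Tgfbr3-204 took 8.18% and 24.3%, and the processed transcript Tgfbr3-203 took 14.3% and 17.0%.

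**Figure D3:**
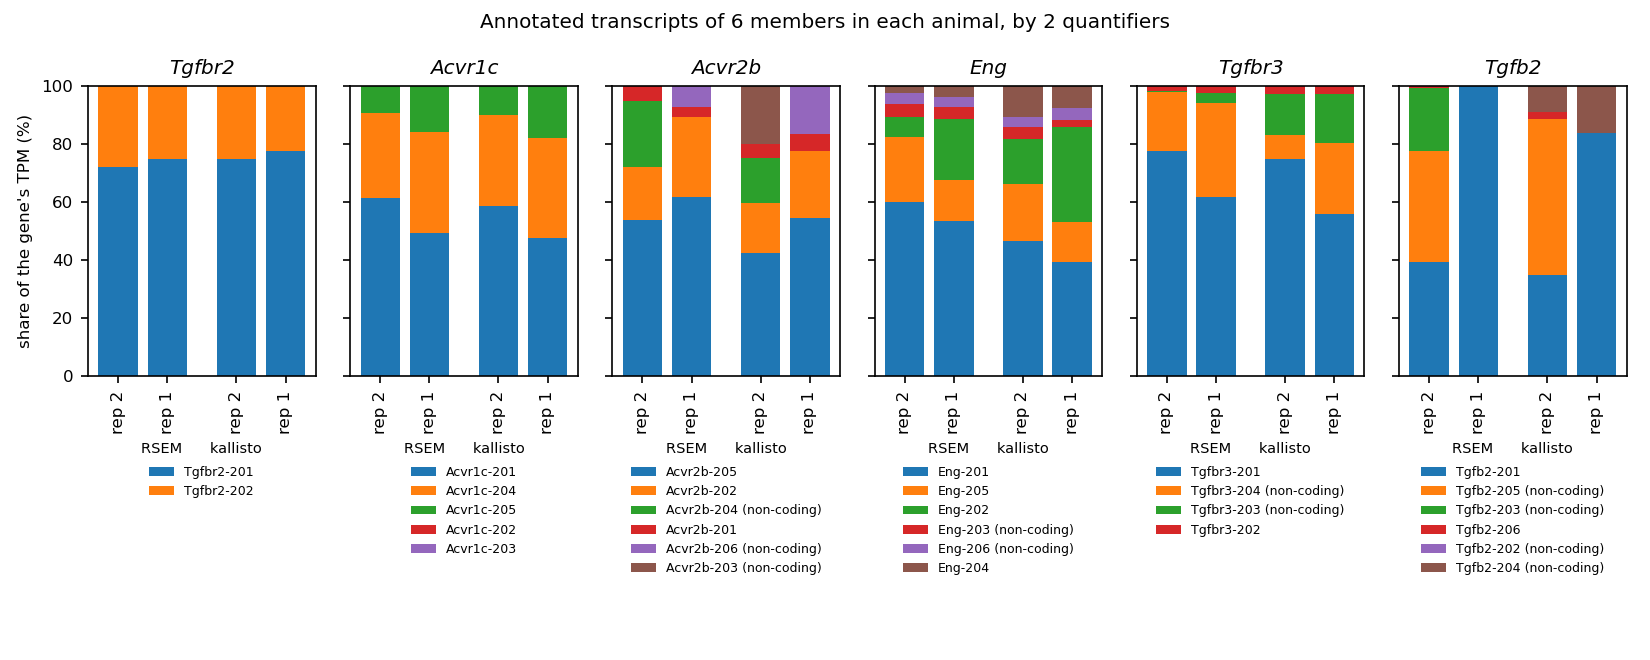
Share of each annotated transcript in its gene's TPM (percent) for Tgfbr2, Acvr1c, Acvr2b, Eng, Tgfbr3 and Tgfb2, with replicate 2 left of replicate 1, by RSEM (left pair) and kallisto (right pair). Tgfbr2 is nearly alike in the 4 bars, with Tgfbr2-202 between 22.2% and 27.9%, whereas Tgfb2-201 is at 39.5% in replicate 2 and 100% in replicate 1 by RSEM.

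All 8 SMAD genes were detected. Smad2, on chromosome 18, had 28.1 TPM in replicate 2 and 28.8 TPM in replicate 1. Smad4, the common partner SMAD and also on chromosome 18, had 28.5 and 26.5 TPM. Smad5 (chr13:56703010-56742377, plus strand) had 20.9 and 23.1 TPM. Smad2 and Smad4 changed places between the animals, and Smad5 lay below both in each gland. Smad2 had 2660 and 2654 expected counts and a ratio of 0.854 (0.809 to 0.902). The intervals of Smad4 (0.900 to 1.01, from 2589 and 2318 counts) and Smad5 (0.912 to 1.00, from 3623 and 3229) hold equality.

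The receptor-regulated SMADs of the TGF-beta and activin branch took close to the same summed TPM as those of the BMP branch. Smad2 and Smad3 together held 51.1 ± 0.489% of the TPM of the 5 receptor-regulated SMADs (SD, n = 2), with 51.5% in replicate 2 and 50.8% in replicate 1. By kallisto the mean share was 56.1%, a difference larger than the spread between the animals. Smad5 averaged 22.0 TPM by RSEM and 16.4 TPM by kallisto. RSEM put 13.5% of its TPM in replicate 2 and 19.1% in replicate 1 on the retained-intron transcript Smad5-206, where kallisto put 1.56% and 4.16%. Smad3 had 16.7 TPM in replicate 2 and 16.2 TPM in replicate 1, Smad1 had 11.3 TPM in both, and Smad9 had 9.99 and 9.12 TPM. Thus each receptor-regulated SMAD gene was detected, and Smad9 was the lowest of the 5.

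The inhibitory SMADs, which block receptor signalling and are themselves induced by it, were lower in replicate 2. Smad7 had 12.1 TPM in replicate 2 and 14.3 TPM in replicate 1, from 1054 and 1327 expected counts, a scaled ratio of 0.677 (0.624 to 0.735). Smad6 had 2.95 and 3.29 TPM and a ratio of 0.820 (0.688 to 0.978). The level of Smad7 was 4.23 ± 0.159 times that of Smad6 (SD, n = 2). Smad6 lies 195 kb from Smad3 on chromosome 9 with no coding gene between them, and Smad3 had a ratio of 0.891 (0.838 to 0.947). In the SMAD class, 4 of 8 intervals lay below equality (Smad2, Smad3, Smad6 and Smad7) and 0 above it, where 28.4% of 12853 nuclear genes averaging at least 100 counts lay on each side.

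Of the antagonists, Fstl3 and Fst bind activin, and Nog and Grem1 bind BMPs. Fstl3 (chr10:79777272-79782630, plus strand) was the highest, at 16.0 TPM in replicate 2 and 18.1 TPM in replicate 1, from 848 and 901 expected counts. Fst (follistatin; chr13:114452290-114458951, minus strand) had 2.21 and 1.5 TPM, from 100 and 71, and a ratio of 1.20 (0.877 to 1.65). The ratio of Fstl3 to Fst was 7.24 in replicate 2 and 12.1 in replicate 1. Fstl3 led in both glands, with 84.6 ± 5.01% of antagonist TPM (SD, n = 2).

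Grem1 was the only one of the 38 genes called as differing between the animals. Gremlin 1 (chr2:113746164-113758646, minus strand) had 1.45 TPM in replicate 2 and 0.55 TPM in replicate 1, from 177 and 62 expected counts. The scaled count was 2.43 times as high in replicate 2 (1.81 to 3.31). Capsule and fibroblast markers summed to 291 TPM in replicate 2 and 189 TPM in replicate 1, with 8 of 8 detected. Of these 8, 2 were called higher (Col1a1 and Col3a1), against 2.39% of nuclear genes. Their ratios ran from 1.04 for Nr2f2 to 3.04 for Col3a1, which had 36.3 and 13.0 TPM. The part of these markers in the Grem1 difference, and that of the fat markers given with the library totals, was not tested. Nog (chr11:89300638-89302332, minus strand) pointed the other way, with 0.08 and 0.38 TPM on 4 and 17 counts and a ratio of 0.201 (0.0491 to 0.615), too few reads to enter the count of calls.

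A gene was called here when its mean was at least 100 counts, its scaled counts lay at least 2-fold apart and its 95% counting interval left out equality. By this rule 1 of 31 genes was higher in replicate 2, against 2.39% of 12853 nuclear genes, and 0 of 31 were lower, against 1.15%. Intervals at any fold lay above equality for 7 of 31 (28.4% of nuclear genes) and below it for 9 of 31 (28.4%). These shares are near the background and do not set the 38 genes apart. The median log2 ratio of the 38 genes was 0.02, against 0.00 over 18181 nuclear genes. With 1 animal on each side these are descriptions of the animals, and no p is given.

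**Figure D4:**
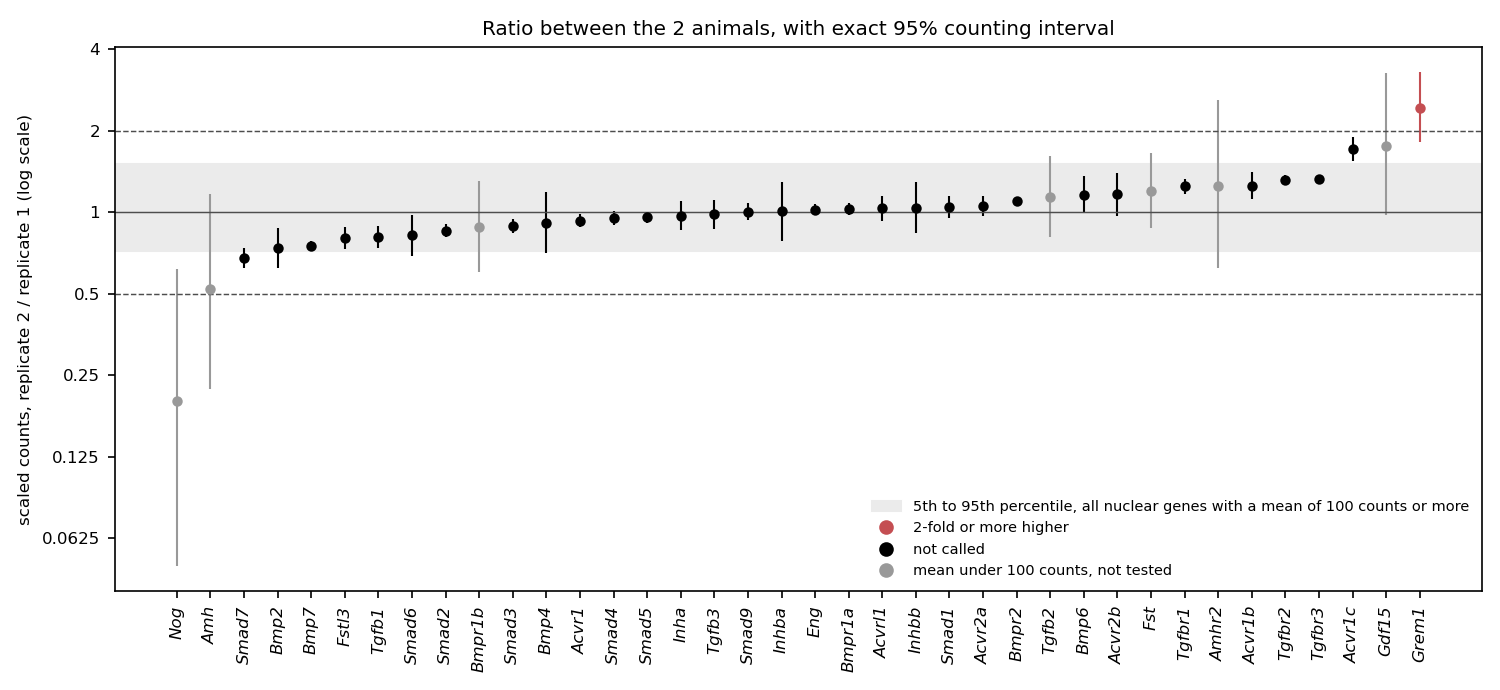
Ratio of scaled counts, replicate 2 over replicate 1, for each of the 38 genes on a log scale, with exact 95% counting intervals; grey points have a mean under 100 counts and the grey band spans the 5th to 95th percentile of all nuclear genes with at least 100. Grem1 is the red point at 2.43, Acvr1c lies at 1.71 and Smad7 at 0.677.

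By role, and against 28.4% of nuclear genes on each side, intervals lay above equality for 3 of 6 type I receptors (Acvr1c, Acvr1b and Tgfbr1) and below it for 1 (Acvr1). They lay above it for 3 of 6 type II receptors and co-receptors and below it for 0. Of the ligands, the 3 inhibin and activin subunits held equality and 3 of 6 others lay below it (Bmp7, Bmp2 and Tgfb1). Of the 2 antagonists averaging at least 100 counts, Grem1 lay above equality and Fstl3 below it, at 0.802 (0.730 to 0.882). The sign of all 17 genes whose interval left out equality, Nog among them, was the same under each scaling, count source and pseudocount tried. Only the sign was compared. Intervals above and below equality were counted with TMM scaling alone, and ratios near 1 may cross equality under another scaling. The log2 ratio of Acvr1, for example, was -0.101 with TMM and -0.0201 with ERCC totals. The role classes were read after the values were known, and the differences among them were not tested.

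Beyond the 38 genes, 77 other genes of the pathway were looked up from lists of ligands, modulators, regulators and targets, and 44 were detected. Of the 47 averaging at least 100 counts, 2 were called higher in replicate 2 and 1 lower, against 2.39% and 1.15% of nuclear genes. Of the 21 other ligands, 2 were detected. Lefty1, an antagonist of nodal, had 5.63 TPM in replicate 2 and 5.65 TPM in replicate 1. Gdf10 had 6.89 and 3.47 TPM and a ratio of 1.82 (1.63 to 2.03), short of 2-fold. Bmp3, a BMP known to oppose other BMPs, had 1.26 TPM in replicate 2 and 0.14 TPM in replicate 1, from 211 and 25 counts, and was called higher at a ratio of 7.20 (4.74 to 11.4). Gdf11 was near the limit, at 1.08 and 0.86 TPM.

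Of 12 further extracellular antagonists and modulators, 6 were detected. Twsg1 (a BMP modulator) had 58.1 TPM in replicate 2 and 53.7 TPM in replicate 1, Htra1 (a secreted protease) had 32.9 and 26.5 TPM, Nbl1 had 27.5 and 22.9 TPM, and Fstl1 had 17.0 and 11.6 TPM. All of these were higher than any of the BMP antagonists among the 38 genes. Chrdl1, a chordin-like BMP antagonist, had 1.71 and 0.58 TPM and was called higher at a ratio of 2.26 (1.69 to 3.07). Of the 7 in this class averaging at least 100 counts, 6 intervals lay above equality and 0 below, where 28.4% of nuclear genes lay on each side. Intervals of fibroblast markers (7 of 8), macrophage markers (7 of 8) and fat markers (7 of 7) lay above equality too, and their part in these values was not tested.

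Genes of TGF-beta latency and activation were broadly present, with 12 of 13 detected and only Itgb6 at 0 TPM. Ltbp3, a latent TGF-beta binding protein, had 156 TPM in replicate 2 and 145 TPM in replicate 1. Furin, the protease that cleaves the precursors, had 60.1 and 59.2 TPM, the integrin subunit Itgav had 48.7 and 50.2 TPM (28.5 and 28.4 TPM by kallisto), and Ltbp4 had 40.8 and 30.6 TPM. Thbs1 (thrombospondin 1, an activator of latent TGF-beta) had 7.65 and 16.1 TPM, from 1303 and 2578 counts, and was the gene called lower at a ratio of 0.431 (0.403 to 0.461). Smooth muscle and pericyte markers summed to 86.6 TPM in replicate 2 and 133 TPM in replicate 1. The 2 of 6 called lower, against 1.15% of nuclear genes, were Acta2 (14.0 and 41.4 TPM) and Tagln (33.4 and 64.8 TPM). Intervals of the 6 lay above equality for 3 (Rgs5, Pdgfrb and Myh11) and below for 3, with a median log2 ratio of 0.03, and their part in the Thbs1 difference was not tested.

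Of the 7 co-receptors and pseudoreceptors, 3 were detected, led by Rgmb with 7.20 TPM in replicate 2 and 6.54 TPM in replicate 1, Rgma with 5.40 and 2.51 TPM and Tmem100 with 1.18 and 1.24 TPM. Bambi, a pseudoreceptor, was just under the limit at 0.95 and 0.93 TPM. All 12 intracellular regulators were detected. Ppm1a (a phosphatase acting on SMADs) had 104 TPM in replicate 2 and 81.3 TPM in replicate 1, Fkbp1a (which holds type I receptors inactive) had 103 and 93.7 TPM, Usp15 had 28.2 and 29.6 TPM, and Ski had 24.9 and 20.8 TPM. None of the 12 was called.

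Of 15 target genes of SMAD signalling, 12 were detected, and 9 of 12 with enough counts had an interval below equality against 2 above it, where 28.4% of nuclear genes lay on each side. The median log2 ratio of the class was -0.25, and 0 were called. Intervals of the cortex markers (7 of 7, median log2 ratio -0.37) and of the chromaffin markers (7 of 7, -0.40) lay below equality too. So did those of 5 of 8 endothelial markers (median -0.12), with 2 above it. The part of these cell types in the values of the target genes was not tested. Tsc22d1 was the most abundant, with 967 TPM in replicate 2 and 617 TPM in replicate 1, and had a ratio of 1.43 (1.41 to 1.45). Id2, an inhibitor of bHLH factors and a BMP target, had 112 and 138 TPM, a ratio of 0.748 (0.716 to 0.781). Tgfbi had 60.0 and 51.3 TPM (1.07, 1.02 to 1.12), and Ccn2 had 32.5 and 41.2 TPM (0.707, 0.666 to 0.751). Smad6 and Smad7 are also in this class, so their ratios are counted here again. Id1, outside the naming rule and named after its values were seen, had 14.5 and 25.4 TPM and the lowest ratio of the class at 0.526 (0.461 to 0.60).

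**Figure D5:**
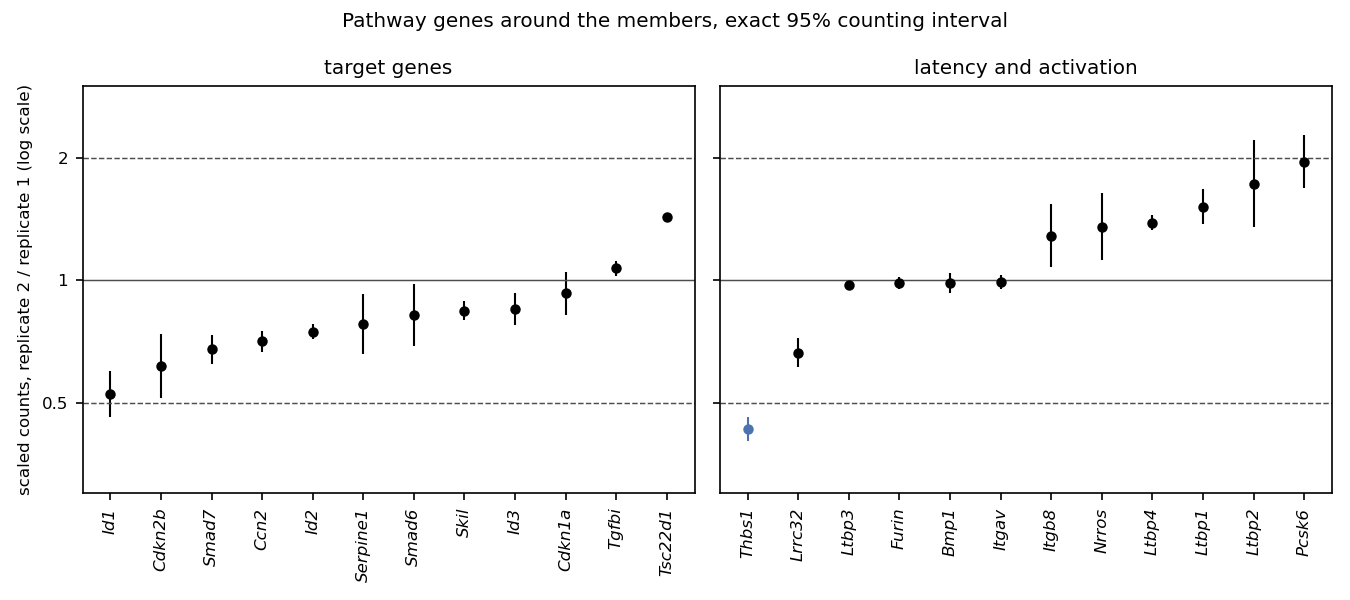
Ratio of scaled counts, replicate 2 over replicate 1, with exact 95% counting intervals on a log scale, for target genes (left) and genes of latency and activation (right) averaging at least 100 counts. Most target genes lie below 1, down to Id1 at 0.526, with Tsc22d1 at 1.43, and Thbs1 (blue) is the gene called lower at 0.431.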

How the data were processed

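Total RNA-seq of the adrenal gland of 2 mice was analysed from the deposited tables, each made from 1 library without pooling. The gene tables hold expected counts (estimated, not whole) and TPM that the authors computed over all entries, spike-ins included, under the column names RSEM writes, per the file headers. Transcript tables deposited beside them give each transcript's percent of the TPM of its gene. Another deposited table for each library has kallisto's column names, with estimated counts and TPM. The text deposited with the tables names mm10 with GENCODE M21. For aligner and quantifier, version and settings were not given in the sources used. The tables hold 55536 annotated genes, 96 ERCC entries and 26249 other entries. The ERCC and other entries entered neither library sizes nor results. Both parental alleles were quantified against 1 reference genome, and the effect on levels was not tested.

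Levels are deposited TPM, given as mean ± SD over n = 2. Counts were rounded to whole numbers and scaled by TMM (edgeR 4.0.16 in R 4.3.3). Ratios are replicate 2 over replicate 1 with exact conditional binomial 95% intervals, and log2 ratios are of CPM + 1 from unrounded counts, which understates differences of low genes. Medians of log2 ratios cover genes averaging at least 10 counts. Where a count is 0, up to 3 counts are allowed by it, or 0.0883 CPM in replicate 2 and 0.100 CPM in replicate 1. The code for intervals and calls was run on simulated counts with known ratios and counting noise only. That setting holds no variation between animals. Alternatives were DESeq2 1.42.0 size factors, library and ERCC totals, kallisto values, RSEM posterior means, other count, TPM and fold limits, a pseudocount of 0.5 CPM, and leaving out each animal. The posterior SD of the count was 0 for every member gene but Tgfbr3 (4.26 counts in replicate 2 and 3.53 in replicate 1).

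Values were given in full for the 3 highest of each role class by mean TPM, every gene called 2-fold apart and every gene under 1 TPM in either animal, and for the 4 highest of each class of other pathway genes and those called. The members and lists were chosen with earlier results of these data known. Coding segments were read from GENCODE M21 transcripts. Acvr1c, Acvr2b, Smad7 and other genes described outside this rule were chosen after their values were seen.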

Additional observations from a re-analysis of the deposited data

How the results depend on the processing

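The call of Grem1 held under DESeq2 size factors, library totals, ERCC totals, kallisto counts and lower count limits, and 2 genes (Grem1 and Acvr1c) lay past a limit of 1.5-fold. Genes called lower numbered 0 with a mean of at least 100 counts, and 1 (Nog) with at least 10 counts or no count limit. The number detected was 28 at 2 TPM and 35 when TPM were rescaled to nuclear coding genes. With 1 animal left it was 30 to 32 for the 38 genes and 46 to 50 for the other pathway genes (46 with both, Smad6 and Smad7 included). The Inha ratio then ranged from 5.99 to 6.43, the Tgfb1 share from 69.7% to 74.8%, and the Smad2 plus Smad3 share from 50.8% to 51.5%. By kallisto that last share was 56.1%, and the cause was not tested. The median log2 ratio of the 38 genes was between 0.01 and 0.10 in all settings, the highest with ERCC totals. The log2 ratios of 8 genes moved with ERCC totals, 2 with library totals and 1 with kallisto counts, and mean TPM moved for 16 genes with kallisto and 6 with posterior means. By posterior means Amhr2 averaged 1.02 TPM, against 0.365 TPM as deposited in the TPM column. No paired analysis was possible because the study has 1 group. With 1 effective length in both libraries, the TPM ratio of Bmp6 was 1.26, against 1.56 as deposited, and that of Bmp4 was 1.00, against 0.795. With 2 animals, differences between them have no replicate check, and for genes under 1 TPM the counts limit precision.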
